A study of Mus musculus with 6 samples.

Results

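Genes of the NRF2 and glutathione detoxification pathway were examined in EMT6 cells, a line from a mouse mammary carcinoma, grown in culture with an antibody against PD-L1. The list holds 10 of the 53465 genes of the deposited count table: Nfe2l2, Gclc, Gclm, Gsta1, Gsta4, Gstm1, Nqo1, Hmox1, Txnrd1 and Srxn1. They were chosen from knowledge of the pathway after Gsta1 had been selected on its difference between these same groups, with the question of whether Gsta1 rose alone. The values of the comparison are therefore given as a description.

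Cells labelled as parental (PVITRO, 3 samples) were maintained with an isotype control antibody, and cells labelled as resistant to anti-PD-L1 (PTRVITRO, 3 samples) with anti-PD-L1 clone 80, each at 0.5 μg/ml for more than 4 weeks. Both groups derive from the same line and grew in RPMI with serum, and the labels name no engineered allele. No immune cells were present, so resistance in the label refers to exposure in culture and not to tumors that escaped treatment. The labels do not say whether the 3 samples of a group were separate cultures, and the study treats replicates as technical where it does not state otherwise. Intervals and p-values here therefore measure the spread between these libraries, and a difference between cultures that is unrelated to the antibody would not widen them.

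The total count was 17757341 to 32426739 per library, and 14217 genes had enough counts to be tested. All 10 genes were among them, with mean counts from 590.7 (Nqo1) to 8079 (Nfe2l2). Of the epithelial markers, Krt8, Krt18 and Epcam were detected and Cdh1 was not tested for lack of counts. The 4 epithelial markers summed to 1514 to 1636 CPM (counts relative to library size, scaled by the upper quartile) in PVITRO and 1598 to 1680 CPM in PTRVITRO, with overlap. Krt8, which made up most of the sum, overlapped too, whereas Krt18 (479.8 to 505.8 CPM and 523.2 to 567.9 CPM) and Epcam (1.24 to 1.80 CPM and 2.15 to 2.41 CPM) were higher in every PTRVITRO library. Sums of 3 mesenchymal markers were 8168 to 9038 CPM and 7478 to 7946 CPM and did not overlap. Of these, Fn1 did not overlap (6252 to 7167 CPM and 5506 to 6088 CPM), Vim did (1871 to 1916 CPM and 1840 to 1972 CPM), and Cdh2 was not tested for lack of counts. The part of these marker differences in the results was not tested. Summed separately, the leukocyte, endothelial and hepatocyte markers each reached at most 0.339 CPM in any library. The leukocyte markers Ptprc and Adgre1 and the hepatocyte marker Ttr were at 0 in all 6 libraries.

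NRF2, encoded by Nfe2l2, is a transcription factor that the adaptor KEAP1 holds at low protein levels by directing its ubiquitination. Oxidants and electrophiles modify KEAP1, whereupon NRF2 accumulates, pairs with small MAF proteins and binds antioxidant response elements. Much of its control thus lies in protein stability, which RNA levels do not show. Its targets make glutathione, couple glutathione to electrophiles and reduce quinones, haem products and oxidized thiols. In tumor cells this program is known for protection against oxidative stress and for drug resistance.

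Matches to 1 form of the core of the antioxidant response element are shown here where they occurred at the start sites of these genes. Windows from 250 bases before to 50 bases after a RefSeq start site (GRCm38.p6) were found for 7 of the 10 genes, with 10 windows in all, since Gstm1 had 2 and Txnrd1 had 3. The motif TGACNNNGC was searched on both strands. It can overlap the AP-1 motif TGACTCA. It was present in 4071 of 32851 windows of all genes (12.4%) and in 1 window each of 4 of these 7 genes, namely Nfe2l2, Srxn1, Gclm and Txnrd1. The windows of Gsta1, Gstm1 and Nqo1 did not hold these letters, and sequence farther upstream was not searched. Each stretch reads 5′ to 3′ on the strand of its gene, with the matching letters in capitals. The Nfe2l2 stretch lies on the minus strand at chr2:75704880-75704913, and the plus-strand stretches lie at chr2:152105537-152105573 (Srxn1), chr3:122245408-122245446 (Gclm) and chr10:82859099-82859137 (Txnrd1). In Srxn1, Gclm and Txnrd1 the motif lies on the opposite strand and reads as its reverse complement.
Nfe2l2: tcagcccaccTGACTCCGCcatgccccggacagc
Srxn1: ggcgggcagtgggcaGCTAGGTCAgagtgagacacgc
Gclm: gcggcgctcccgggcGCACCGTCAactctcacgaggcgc
Txnrd1: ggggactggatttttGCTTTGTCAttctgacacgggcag
A match of letters is a description and not a binding site.

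Gsta1 was the member that differed most, and the other 9 genes moved by 0.24 or less on the log2 scale. By the quasi-likelihood F test of edgeR with Benjamini-Hochberg adjustment over all tested genes, Gsta1 was the 1 member past an adjusted p of 0.05 (0.0148), where 35 of 14217 genes passed (0.246%) and 14 of them were higher in PTRVITRO (0.0985%). This is how Gsta1 came to be chosen, and nothing is read from it. At an unadjusted p below 0.05, Gsta1, Gsta4, Gstm1 and Srxn1 were higher in PTRVITRO and no member was lower, beside 11.4% of all tested genes in either direction. The groups did not overlap, with PTRVITRO above, in Gsta1, Gstm1, Srxn1 and Nfe2l2, beside 8.27% of all tested genes. PTRVITRO lay below without overlap in Hmox1, beside 9.33%. The median log2 fold change was 0.07 over the 10 genes, 0.05 over the 9 genes other than Gsta1 and -0.004 over all tested genes. In bulk RNA a smaller share of expressing cells and less RNA per cell cannot be told apart.

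**Figure D1:**
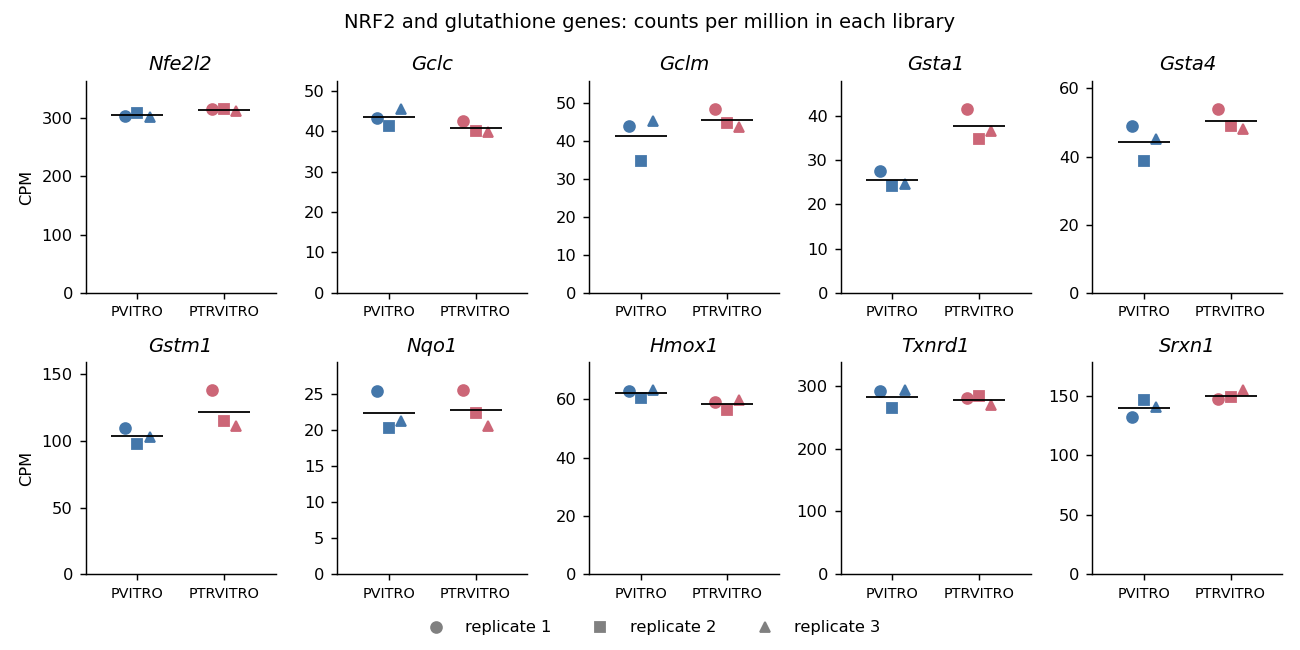
Upper-quartile-scaled CPM (vertical axes, each from 0) of the 10 genes in each of the 6 libraries. Symbols stand for replicate numbers and horizontal lines for group means of 3 libraries. The points of Gsta1 separate most, from 24.0 to 27.5 CPM in PVITRO and from 34.7 to 41.6 CPM in PTRVITRO.

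Nfe2l2 itself, the gene of the factor (ENSMUSG00000015839.6, chr2:75675513-75704641, minus strand, GRCm38), had the smallest spread between libraries of the 10 genes. It measured 304.1, 309.7 and 302.6 CPM in PVITRO and 316.5, 315.9 and 312.0 CPM in PTRVITRO. Every PTRVITRO library lay above every PVITRO library, although the distance was small. The fold was 1.03 (95% interval 0.983 to 1.08), a log2 fold change of 0.04 with an SE of 0.0311.

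Gclc and Gclm encode the catalytic and modifier subunits of glutamate-cysteine ligase, which carries out the rate-limiting step of glutathione synthesis. Gclc (ENSMUSG00000032350.9, chr9:77754535-77794485, plus strand) measured 43.3, 41.4 and 45.6 CPM in PVITRO and 42.5, 40.2 and 39.9 CPM in PTRVITRO. The ranges overlapped, and the log2 fold change was -0.09 (95% interval -0.20 to 0.03) and -0.05 without PVITRO replicate 3. Gclm (ENSMUSG00000028124.15, chr3:122245557-122270732, plus strand) measured 43.8, 34.6 and 45.2 CPM in PVITRO and 48.4, 44.5 and 43.6 CPM in PTRVITRO. PVITRO replicate 2 stood below the other 5 libraries, which overlapped. The log2 fold change of Gclm was 0.15 (95% interval -0.04 to 0.35), and without PVITRO replicate 2 it was 0.04. The Gclm value is uncertain in a further respect, because an annotated Gclm transcript shares 287 bases at 97.9% identity with Ppia, which measured 1448 ± 72.1 CPM in PVITRO and 1543 ± 63.8 CPM in PTRVITRO (SD, n = 3). The same transcript shares 244 bases at 100% identity with 2 processed pseudogenes, Gm10123, at 186.6 ± 7.23 CPM and 185.1 ± 0.980 CPM, and Gm6061, which lies inside Gclm on the same strand and had a count of 0 in all libraries. An antisense gene, Gm17494, also overlaps Gclm, with a mean count of 38.3.

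Gsta1, Gsta4 and Gstm1 encode cytosolic glutathione S-transferases, which couple glutathione to electrophiles. The alpha class acts on products of lipid peroxidation, with GSTA4 known for its activity on 4-hydroxynonenal, and the mu class acts on many xenobiotics. All 3 had higher means in PTRVITRO. Gsta1 (ENSMUSG00000074183.3, chr9:78230656-78242684, plus strand) measured 27.5, 24.0 and 24.6 CPM in PVITRO and 41.6, 34.7 and 36.6 CPM in PTRVITRO. The lowest PTRVITRO library was above the highest PVITRO library, and replicate 1 was the highest of both groups. The means were 25.4 ± 1.84 CPM and 37.6 ± 3.54 CPM (SD, n = 3), a fold of 1.49 (95% interval 1.32 to 1.67) and a log2 fold change of 0.57 (SE 0.0767). Leaving out 1 library in turn gave log2 fold changes from 0.49 to 0.64. Gsta1 passed the threshold in 4 of these 6 fits and not without PVITRO replicate 3 (adjusted p = 0.123) or PTRVITRO replicate 3 (adjusted p = 0.0563).

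Gsta4 lies beside it on the chromosome (ENSMUSG00000032348.6, chr9:78182774-78209349, plus strand) and measured 48.9, 38.8 and 45.2 CPM in PVITRO and 54.1, 48.9 and 48.2 CPM in PTRVITRO. PVITRO replicate 1 reached into the range of PTRVITRO. The log2 fold change was 0.20 (95% interval 0.02 to 0.37), and it ran from 0.11 to 0.28 when 1 library was left out, the lowest without PVITRO replicate 2. Gstm1 (ENSMUSG00000058135.12, chr3:108012255-108017973, minus strand) measured 109.6, 97.8 and 102.8 CPM in PVITRO and 137.9, 114.8 and 111.3 CPM in PTRVITRO. The groups did not overlap, but the lowest PTRVITRO library lay only just above the highest PVITRO library. Its log2 fold change of 0.24 (95% interval 0.07 to 0.40) dropped to 0.13 without PTRVITRO replicate 1. Gstm1 shares 657 bases at 97.9% identity with the pseudogene Gstm2-ps1 and 207 bases at 98.1% with Gm8834. Gstm1 held 92.0% of the sum with these pseudogenes, and this sum differed by a log2 ratio of 0.23. When genes with low counts were not filtered out, Gsta4 and Gstm1 also passed the threshold (edgeR adjusted p = 0.0381 and 0.000353), so that 3 members passed in place of 1, beside 400 of 25274 genes (1.58%) in place of 35.

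Nqo1 encodes a quinone reductase and is a customary readout of NRF2 activity. Nqo1 (ENSMUSG00000003849.8, chr8:107388225-107403206, minus strand) measured 25.4, 20.3 and 21.3 CPM in PVITRO and 25.5, 22.3 and 20.5 CPM in PTRVITRO. Replicate 1 was the highest library of both groups, and the ranges covered each other almost whole. Its log2 fold change was 0.05 (95% interval -0.17 to 0.26) and turned to -0.02 without PVITRO replicate 2 and to -0.05 without PTRVITRO replicate 1. Hmox1, for haem oxygenase 1, which breaks haem down to biliverdin, iron and carbon monoxide, was the 1 member whose PTRVITRO libraries were all lower. Hmox1 (ENSMUSG00000005413.8, chr8:75093621-75100589, plus strand) measured 62.7, 60.4 and 63.1 CPM in PVITRO and 59.2, 56.3 and 59.7 CPM in PTRVITRO. The log2 fold change was -0.09 (95% interval -0.18 to 0.005).

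Txnrd1 and Srxn1 serve the thioredoxin branch, Txnrd1 as the cytosolic thioredoxin reductase and Srxn1 as sulfiredoxin, which restores overoxidized peroxiredoxins. Txnrd1 (ENSMUSG00000020250.10, chr10:82833951-82897712, plus strand) measured 291.2, 264.5 and 293.2 CPM in PVITRO and 280.5, 284.1 and 270.2 CPM in PTRVITRO. The PTRVITRO values lay inside the PVITRO range. Its log2 fold change of -0.02 (95% interval -0.12 to 0.07) became 0.003 to 0.005 without PVITRO replicate 1 or 3 and 0.001 without PTRVITRO replicate 3. Srxn1 (ENSMUSG00000032802.8, chr2:152105516-152111376, plus strand) measured 132.4, 146.2 and 140.5 CPM in PVITRO and 147.2, 148.9 and 154.9 CPM in PTRVITRO. The groups did not overlap, but PVITRO replicate 2 came within the distance between PTRVITRO replicates 1 and 2. The log2 fold change was 0.10 (95% interval 0.01 to 0.20).

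**Figure D2:**
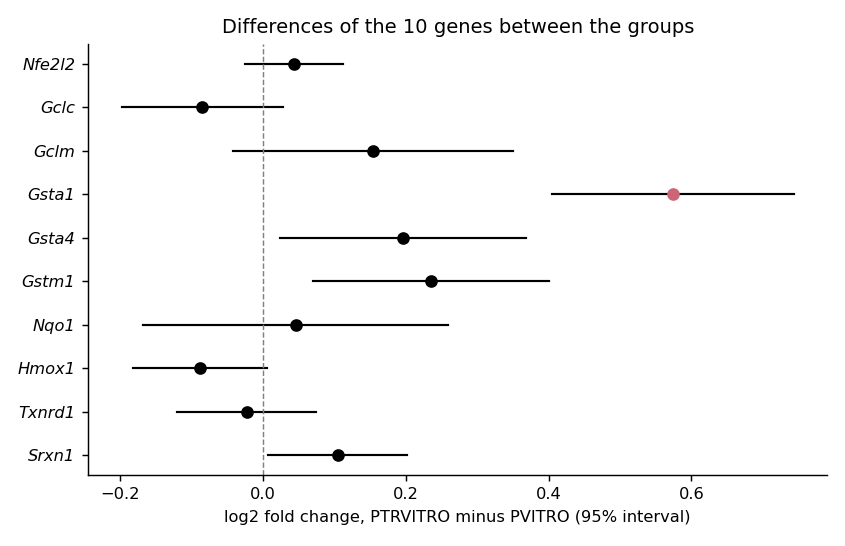
Log2 fold change of PTRVITRO minus PVITRO (horizontal axis) for the 10 genes, from the edgeR fit on 3 libraries per group. Points are estimates and lines 95% intervals. Gsta1 is at 0.57 with an interval from 0.41 to 0.74, and the intervals of Nfe2l2, Gclc, Gclm, Nqo1, Hmox1 and Txnrd1 include 0.

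The intervals bound what these libraries show of the other 9 genes. The upper limits of their log2 fold changes ran from 0.005 (Hmox1) to 0.40 (Gstm1). The adjusted p-values of the 9 genes by edgeR were 0.257 to 0.904, which does not show that they stayed the same. Expressed as a ratio within a library, Gsta1 relative to each of the other 9 genes was higher in the 3 PTRVITRO libraries than in the 3 PVITRO libraries, with mean differences in log2 ratio from 0.34 (against Gstm1) to 0.66 (against Gclc). The ratio to Nqo1 was 0.12, 0.24 and 0.21 in PVITRO and 0.70, 0.64 and 0.83 in PTRVITRO. These ratios use the values that chose Gsta1.

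Gsta1 has near-identical neighbors on chromosome 9, so the reads assigned to it depend on how RSEM divided ambiguous reads. In GENCODE M21 transcripts, Gm3776 (chr9:78257129-78269166, plus strand) matched Gsta1 over 874 bases at 99.5% identity, with 4 differing bases of which 2 are coding. The longest identical run was 565 bases. Gsta2 matched over 870 bases at 97.2% and Gm10639 over 874 bases at 96.6%. The coding sequence of Gsta1 has 672 bases for 223 residues. Both coding differences to Gm3776 are shown because reads that do not cross a difference cannot be placed by sequence. The capital marks the differing base, the first pair is centred on coding position 25 (chr9:78232244-78232284 in Gsta1 and chr9:78258716-78258756 in Gm3776) and the second on position 591 (chr9:78242477-78242517 and chr9:78268960-78269000), all on the plus strand of GRCm38 and counted from the start codon.
Gsta1, first site: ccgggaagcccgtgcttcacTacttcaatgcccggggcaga
Gm3776, first site: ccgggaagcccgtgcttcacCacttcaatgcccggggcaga
Gsta1, second site: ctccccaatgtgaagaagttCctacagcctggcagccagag
Gm3776, second site: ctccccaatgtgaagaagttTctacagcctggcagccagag

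The near-identical genes carried few counts. Gm3776 measured 1.93, 1.27 and 2.32 CPM in PVITRO and 2.75, 3.11 and 3.26 CPM in PTRVITRO, with a mean count of 62.3. The groups did not overlap, and the log2 fold change was 0.73 (95% interval 0.25 to 1.22, edgeR adjusted p = 0.228). Gm10639 measured 0.267 to 0.557 CPM in PVITRO and 0.388 to 0.674 CPM in PTRVITRO, and Gsta2, with a mean count of 3.57, was not tested. Gsta1 made up 91.2% of the sum of the 4 genes. This sum was 30.0, 25.7 and 27.6 CPM in PVITRO and 45.0, 38.3 and 40.7 CPM in PTRVITRO, a log2 ratio of 0.57, and with the counts summed into 1 gene before the fit the log2 fold change was 0.58. The difference of the sum was thus as large as that of Gsta1 alone, and which of the genes the shared reads came from was not tested.

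**Figure D3:**
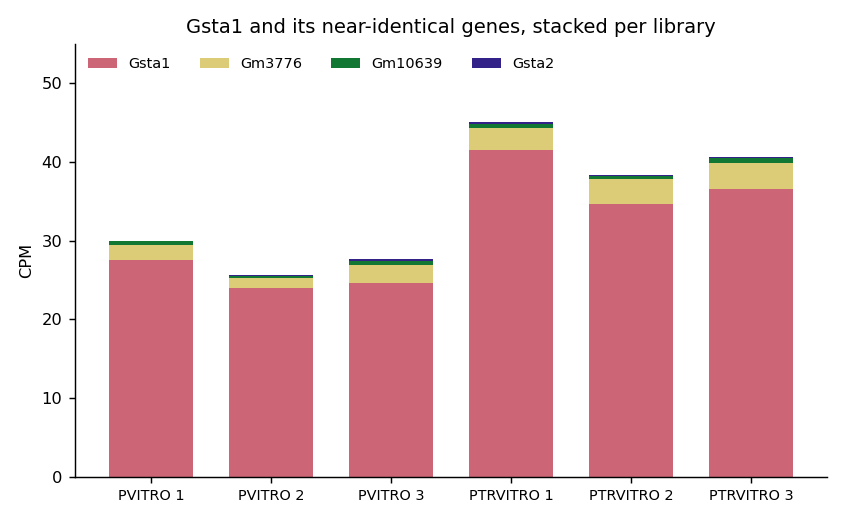
CPM of Gsta1 and of Gm3776, Gm10639 and Gsta2 (vertical axis, from 0), stacked for each of the 6 libraries. The stacks reach 25.7 to 30.0 CPM in PVITRO and 38.3 to 45.0 CPM in PTRVITRO, and Gsta1 fills most of each.

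Levels were compared between genes per length, as TPM, computed here by dividing counts by the union of annotated exons and scaling each library to the same total. Over the 6 libraries the order from high to low was Nfe2l2 (217.4 ± 6.39 TPM), Gstm1 (202.9 ± 24.4), Srxn1 (136.9 ± 8.81), Txnrd1 (105.3 ± 3.47), Gsta4 (99.4 ± 10.3), Hmox1 (91.5 ± 2.96), Gsta1 (87.7 ± 20.1), Nqo1 (38.6 ± 3.70), Gclc (29.7 ± 1.14) and Gclm (18.3 ± 1.87 TPM, SD, n = 6). Over all 6 libraries the ranges of these neighbors in the order overlapped: Nfe2l2 with Gstm1, Txnrd1 with Gsta4, Gsta4 with Hmox1, and Hmox1 with Gsta1. Txnrd1 and Hmox1, which are not neighbors, did not overlap. Srxn1, Nqo1, Gclc and Gclm overlapped none of their neighbors in the order. Gsta1 changed its place between the groups. At 70.2 ± 4.65 TPM it was below Gsta4 (92.4 ± 9.60) and Hmox1 (93.7 ± 0.925) in PVITRO, and at 105.2 ± 8.23 TPM it was level with Gsta4 (106.4 ± 5.15) and Txnrd1 (105.1 ± 3.00) in PTRVITRO (SD, n = 3). With the longest transcript in place of the exon union, Txnrd1 moved to 163.4 TPM and above Srxn1 at 108.8 TPM, so its place depends on the length assumed.

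Variation between libraries of 1 group was examined separately, as it does not use the comparison of the groups. Deviations of log2 CPM from the group mean were correlated across the 6 libraries for the 45 pairs of members. The median Pearson r was 0.47 (Spearman 0.26), with 31 pairs above 0 and 10 (22.2%) above 0.8, whereas pairs of a member with any other tested gene had a median of 0.08 (Spearman 0.09), with 54.0% above 0 and 14250 of 142070 above 0.8. The highest values were those of Gclm with Txnrd1 (0.917), Gclm with Gsta4 (0.910), Gsta1 with Gstm1 (0.908) and Gstm1 with Nqo1 (0.906). Srxn1 ran opposite to most members, with -0.921 against Nqo1 and -0.913 against Gsta4. Nfe2l2 ran opposite to Hmox1 (-0.728), Gclm (-0.645), Txnrd1 (-0.555), Gsta4 (-0.466) and Gclc (-0.422), was near 0 with Gsta1 (-0.1), Nqo1 (0.005) and Gstm1 (0.075), and had an r of 0.253 with Srxn1.

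The members often shared the place of a library within its group. PVITRO replicate 2 was the lowest of its group for 8 of the 10 members, all but Srxn1 and Nfe2l2, and for 42.1% of all tested genes. PTRVITRO replicate 1 was the highest of its group for 7 members, all but Hmox1, Txnrd1 and Srxn1, and for 41.1% of tested genes. PTRVITRO replicate 3 was the lowest for 7 members and for 39.4% of tested genes. PVITRO replicate 2 was lowest and PTRVITRO replicate 1 highest for 6 members, as for 23.6% of tested genes. PVITRO replicate 2 and PTRVITRO replicate 1 had the largest total count of their groups, 30115549 and 32426739, so that the deepest library was low in one group and high in the other. The points of a correlation share library, depth and scaling, each group mean takes up a degree of freedom, and the part of depth in the pattern was not tested.

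**Figure D4:**
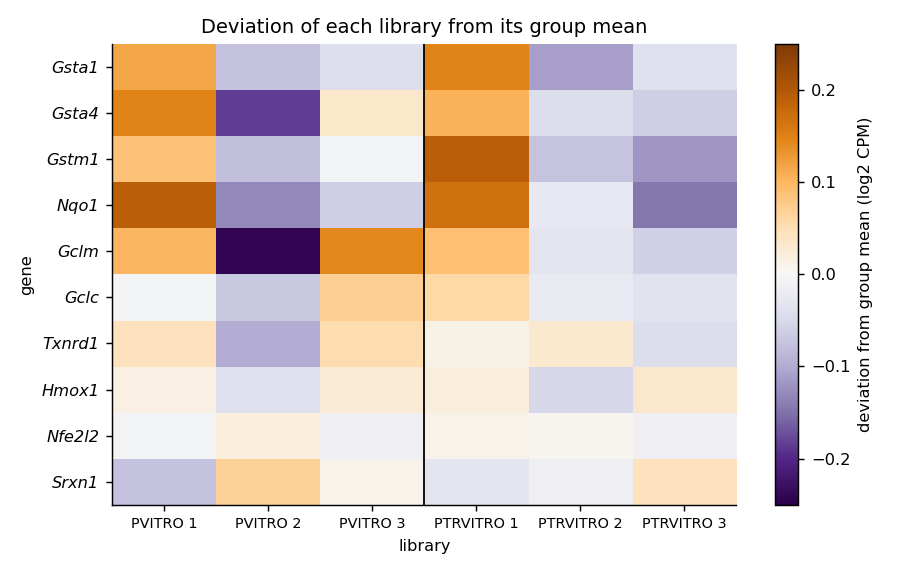
Deviation of each library from the mean of its group in log2 CPM (color scale) for the 10 genes (rows) and 6 libraries (columns, groups divided by the line). Gsta1, Gsta4, Gstm1, Nqo1 and Gclm are above the mean in replicate 1 of both groups, as are Hmox1 and Txnrd1 by at most 0.043. Srxn1 is below the mean there.

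By the Pearson correlation of log2 CPM across all 6 libraries, group difference included, the 5 genes with a mean count of at least 50 whose log2 CPM followed that of Gsta1 most closely were Dynlt1f (r = 0.988), Sncg (0.987), Lmo4 (0.984), Gm13092 (0.983) and Nr1d2 (0.983). Dynlt1f encodes a dynein light chain, Sncg gamma-synuclein, Lmo4 a LIM-domain transcriptional cofactor and Nr1d2 the nuclear receptor REV-ERB beta. Their log2 fold changes were 0.20, 0.26, 0.15, 0.08 and 0.17 in this order, all smaller than that of Gsta1. None of these genes is in the lists of this pathway used here, which hold 101 of the 14217 tested genes.

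The other genes of the pathway were taken from lists written with knowledge of the pathway, 121 genes in all, of which 101 were tested. None passed an adjusted p of 0.05 in edgeR. At an unadjusted p below 0.05, 8 were higher and 8 lower, or 16 of 101 beside 11.4% of all tested genes. Groups did not overlap for 11 higher genes (8.27% of all tested genes) and 13 lower genes (9.33% of all tested genes). DESeq2 called 2 (beside 0.85% of the genes it adjusted), Txnip and Chac1, both lower in PTRVITRO (Chac1 was named after its values were seen), and limma-voom called 0. The median log2 fold change was 0.01 over the 101 genes and -0.004 over all tested genes, and the median absolute value was 0.07 in both.

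Of 15 regulators and partners of NRF2, among them Keap1, Cul3 and Bach1, 0 were higher and 2 lower at an unadjusted p below 0.05, beside 748 higher and 872 lower of the 14217 tested genes, with a median log2 fold change of -0.01. Sqstm1, the autophagy receptor p62 that can sequester KEAP1, measured 1102 to 1122 CPM in PVITRO and 1138 to 1150 CPM in PTRVITRO, a log2 fold change of 0.04. Nfe2l1, a relative of NRF2, measured 667.6 to 703.6 CPM and 632.1 to 635.9 CPM, a log2 fold change of -0.11 (95% interval -0.18 to -0.04). Maff, a small MAF partner, overlapped between the groups at 178.7 to 215.7 CPM and 202.0 to 232.3 CPM.

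Among 26 further glutathione S-transferase genes, 19 were tested, with log2 fold changes above 0 in 16 and below 0 in 3 and a median of 0.08, beside 6893 of 14217 tested genes above 0. At an unadjusted p below 0.05, 3 were higher and 1 lower, beside 748 higher and 872 lower of all tested genes. Some of these genes share sequence with each other or with Gsta1, so their values are not independent. The most abundant per length were Gsto1, of the omega class, and Gstp1, of the pi class. Gsto1 did not overlap between the groups, at 378.9 to 421.4 CPM in PVITRO and 361.3 to 365.3 CPM in PTRVITRO (log2 fold change -0.14, 95% interval -0.23 to -0.06), and Gstp1 measured 224.8 to 251.9 CPM and 230.5 to 252.1 CPM with overlap.

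Of 25 genes for glutathione supply, recycling and peroxidases, 20 were tested, with 1 higher and 1 lower at an unadjusted p below 0.05, where 11.4% of all tested genes passed in either direction, and a median log2 fold change of -0.02. Slc3a2, the heavy chain of the cystine transporter, measured 704.6 ± 18.7 CPM in PVITRO and 672.3 ± 22.9 CPM in PTRVITRO. Gpx4, which reduces lipid hydroperoxides, measured 268.5 to 293.0 CPM and 295.1 to 312.2 CPM without overlap, a log2 fold change of 0.09 (95% interval -0.004 to 0.18) that was 0.05 without PVITRO replicate 2. Ggct, an enzyme of glutathione breakdown, measured 5.85 ± 0.385 CPM and 5.01 ± 0.417 CPM.

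In the thioredoxin and peroxiredoxin list 15 of 15 genes were tested, with 0 higher and 2 lower at an unadjusted p below 0.05, beside 11.4% of all tested genes in either direction. Txnip, an inhibitor of thioredoxin, came nearest to the threshold of all 101 genes, at 216.5 to 228.5 CPM in PVITRO and 181.4 to 197.5 CPM in PTRVITRO. The groups did not overlap, and the log2 fold change was -0.22 (95% interval -0.32 to -0.13, edgeR adjusted p = 0.060). It passed in DESeq2 (adjusted p = 0.000844), with at least 10 counts required in every library (0.0477), with no filter on low counts (0.000194), with a replicate block (0.0487) and without PVITRO replicate 2 (0.0341), whereas leaving out any other library gave 0.0556 to 0.27. Txn1, the cytosolic thioredoxin, measured 232.1 to 251.2 CPM and 246.2 to 256.0 CPM, and Prdx1, an abundant peroxiredoxin, 659.7 ± 41.3 CPM and 707.0 ± 31.5 CPM (SD, n = 3).

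Other NRF2 target genes were tested in 27 of 31 cases, with 4 higher and 1 lower at an unadjusted p below 0.05 (11.4% of all tested genes in either direction) and a median log2 fold change of 0.01. The ferritin chains were the most abundant, Ftl1 with 1838 ± 97.2 CPM and 1881 ± 133 CPM and Fth1 with 2373 ± 137 CPM and 2504 ± 147 CPM (SD, n = 3). Abcc3, an export pump for conjugates, measured 3.02 to 3.94 CPM in PVITRO and 2.41 to 2.86 CPM in PTRVITRO, a log2 fold change of -0.30 (95% interval -0.67 to 0.06) that was -0.18 without PVITRO replicate 1. The aryl hydrocarbon receptor and xenobiotic receptors can also induce glutathione S-transferases. Of 11 genes of this group 6 were tested, all with log2 fold changes below 0 (median -0.09), beside 7324 of 14217 tested genes below 0. At an unadjusted p below 0.05, 1 of the 6 was lower, Arnt with -0.14, beside 872 of all tested genes. Ahr measured 63.2 to 64.6 CPM and 54.9 to 66.3 CPM, and its target Cyp1b1 88.2 to 108.4 CPM and 78.6 to 105.7 CPM, both with overlap. The target Cyp1a1, named after its values were seen, was not tested, with a mean count of 0.667.

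**Figure D5:**
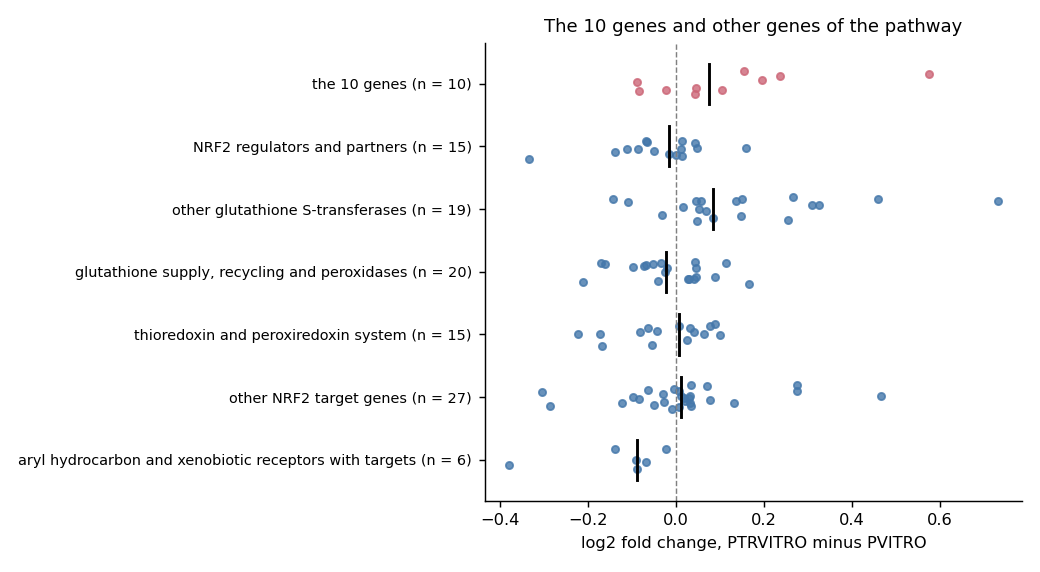
Log2 fold changes of PTRVITRO minus PVITRO (horizontal axis) for the 10 genes and for the tested genes of 6 lists of the pathway (rows), 1 point per gene, with points spread vertically for clarity and a bar at each median. The medians run from -0.09 (aryl hydrocarbon and xenobiotic receptors) to 0.08 (other glutathione S-transferases), and the highest points are Gm3776 at 0.73 and Gsta1 at 0.57.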

How the data were processed

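The authors sequenced stranded, polyA-selected libraries, checked them with FastQC 0.11.5, aligned them to GRCm38 (GENCODE annotation) with STAR 2.6.0a and quantified them with RSEM 1.3.1, per the study's methods and processing notes. The deposited table holds RSEM expected counts per gene, not scaled between libraries. Whether RSEM used the strand is not given in the sources used here. All 6 sample columns were mapped. Symbols, positions and exon lengths came from GENCODE M21 (53274 of 53465 identifiers had a symbol), and promoter sequences from RefSeq (GRCm38.p6).

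Expected counts were rounded, filtered with filterByExpr (minimum count 10, minimum total 15), scaled by the upper quartile and tested in edgeR 4.0.16 (R 4.3.3) by its quasi-likelihood F test on a model of group alone, with Benjamini-Hochberg adjustment over all tested genes. A gene is called when its adjusted p is below 0.05. Standard errors and 95% intervals were derived from the F statistic. CPM are upper-quartile scaled. A floor of 3 counts equals 0.0925 to 0.168 CPM, which covers counting error only. Near-identical transcripts were sought with BLAST 2.17.0 (identity at least 95% over 200 bases). Steps were tested on simulated data.

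The genes named are the 10 members, near-identical genes of Gsta1, in each list the called genes, the 2 most abundant per length and the 1 with the largest change at a mean count of at least 50, and the 5 genes most like Gsta1. Members, lists and tests were chosen with earlier results of these data known. Alternatives were TMM, no scaling factor, DESeq2 1.42.0, limma-voom (limma 3.58.1), filters on low counts, a replicate block, copies summed, another gene length, Spearman correlation and leaving out each library.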

Additional observations from a re-analysis of the deposited data

How the results depend on the processing

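The number of genes called with edgeR was 35 and moved to 105 with DESeq2, to 400 when low counts were not filtered, to 54 when each library needed at least 10 counts, and to 8 to 64 when 1 library was left out (8 without PTRVITRO replicate 3, 64 without PVITRO replicate 2). Of the 10 members, 1 was called, beside 0.246% of all tested genes, and 0 to 1 with 1 library left out. Without a filter 3 were called, beside 1.58% of all genes, namely Gsta1, Gsta4 with a log2 fold change of 0.20 and Gstm1 with 0.24. Of the 101 pathway genes tested 0 were called, beside 0.246% of all tested genes. Without a filter, where more of the 121 listed genes were tested, 9 were called, beside 1.58% of all genes. DESeq2 called 2, beside 0.85% of the genes it adjusted. Where each library needed at least 10 counts 1 was called, beside 54 genes in all, and with 1 library left out 0 to 2, beside 8 to 64 genes in all. The cause of these moves was not tested. Leaving out 1 library gave log2 fold changes of 0.491 to 0.638 for Gsta1, -0.0467 to 0.15 for Nqo1 and -0.0691 to 0.0049 for Txnrd1. It also changed sign for Gstp1 (-0.0221 to 0.0644), Txn1 (-0.0048 to 0.0557), Ftl1 (-0.024 to 0.0756), Cyp1b1 (-0.207 to 0.0068) and Gm10639 (-0.0083 to 0.506). Under the other settings for 69 of 71 values of members neither the direction nor the call changed, the exceptions being Gsta4 and Gstm1 without a filter, and the same held for 125 of 132 values of the other named genes. The median over all tested genes ran from -0.01 to 0.008 across these fits. The median correlation between members was 0.26 with Spearman in place of Pearson.

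Samples with the same replicate number deviated from their group means with correlations of 0.109, 0.095 and -0.06. With 3 libraries per group and no pairing stated in the labels, these values do not decide whether the numbers pair the samples. With a replicate block, 68 of 14217 genes were called, and Gsta1 remained the 1 member called (log2 fold change 0.57). Of the pathway genes 2 were called, Gstt1 and Txnip (the former named after its values were seen).

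With 3 libraries per group, counts set little limit for the members, whose mean counts were at least 590.7, whereas Gm10639 and Gsta2 are near the limit of counting. The spread between libraries limits the statements on changes below about 0.2 on the log2 scale for Gclm, Nqo1, Gsta4 and Gstm1.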

Other observations

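Groups did not overlap for 11 higher and 13 lower pathway genes, beside 8.27% and 9.33% of all tested genes. Some of these outside the naming rule were singled out after their values were seen. Others were left out, among them Abcc4 and Gstt2 (log2 fold change 0.46 each) and Abcg2 (-0.29). Gstt1, a theta-class glutathione S-transferase, measured 24.1 ± 2.16 CPM in PVITRO and 30.1 ± 3.01 CPM in PTRVITRO (SD, n = 3), which is 0.32 on the log2 scale (adjusted p by edgeR 0.176). Gpx8, a peroxidase of the endoplasmic reticulum, measured 69.8 to 73.8 CPM and 76.7 to 85.6 CPM (log2 fold change 0.16, adjusted p = 0.233). Pir, an iron-binding nuclear protein, measured 10.4 to 10.8 CPM and 11.7 to 14.1 CPM (0.27, adjusted p = 0.250). Lower values were found for Chac1, an enzyme that degrades glutathione, at 148.2 to 152.5 CPM and 132.3 to 135.0 CPM (-0.17, adjusted p = 0.0898), and for Sesn2, a sestrin induced by stress, at 128.4 to 138.4 CPM and 115.7 to 121.5 CPM (-0.17, adjusted p = 0.154). Mafg, a small MAF partner of NRF2, measured 132.3 to 134.6 CPM and 116.8 to 126.6 CPM (-0.14, adjusted p = 0.216). None of these passed the threshold in the edgeR fit with all libraries and the filter on low counts. Gstt1 passed with a replicate block, Chac1 in DESeq2, and Gstt1, Chac1 and Sesn2 without the filter.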
